A study of Homo sapiens with 3 samples.

Results

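The 2 arms of the microRNA hsa-miR-331, hsa-miR-331-3p and hsa-miR-331-5p, were examined among the 1921 mature miRNA names listed in small RNA libraries of HCCLM3, a metastatic human cell line of hepatocellular carcinoma (HCC). Both names were found in every library. From each of 3 cultured strains 1 library was sequenced. These were a parent with the label of low metastasis, subclone1 with that of spread to the lung, and subclone2 with that of spread to both the lung and the celiac lymph node. The labels name no treatment. The study's own text calls its parental cells, which express a red fluorescent protein, highly metastatic, so "low" is only the label of that library. In its methods monoclonal lines were grown from single cells of lung or lymph node metastases in nude mice. The labels do not say which clones became subclone1 and subclone2, nor whether each is 1 clone. The pair was chosen on measured values of these same libraries: their counts scaled to a library total of 1e+06 (CPM) and the ratio of the arms. Those values are therefore given as a description, with no test. With 1 library per strain there is no replicate, and every interval is an exact 95% interval for counting error alone. Values listed without a library name are in the order parent, subclone1, subclone2.

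A miRNA precursor is a hairpin whose stem is cut into a short duplex. One strand, from the 5p or the 3p side of the hairpin, is usually kept in an Argonaute protein, and the other is mostly degraded. The kept strand finds its messenger RNA targets mainly through its seed, bases 2 to 8 from the 5′ end, so the arms of 1 hairpin address different targets. miR-331-3p has been described as a repressor of the receptor ERBB2 and, in HCC cells, of the phosphatase PHLPP, a brake on AKT signalling, where it was linked to growth and invasion. No target was measured here.

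The mature sequences, from RefSeq (GRCh38.p14), are shown because the seeds, which direct each arm to its targets, differ. Both run 5′ to 3′ with the seed in capitals.
hsa-miR-331-5p: cUAGGUAUggucccagggaucc
hsa-miR-331-3p: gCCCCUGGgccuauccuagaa
The 5p arm has 22 bases and the 3p arm 21, and G or C makes up 59.1% and 61.9% of them. Neither seed recurred among the 2370 mature names of the RefSeq table, in which 1576 of the 1921 listed names were found. Within that table, miR-331 thus had no partner of the same seed whose counts could be added to it. Folded against each other with RNAduplex, the arms were predicted to form 16 base pairs with an energy of -27.0 kcal/mol. The reported stretch ran from base 1 to 19 of the 5p arm and base 2 to 20 of the 3p arm, unpaired end bases included.

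Reads of related miRNAs can be assigned to the wrong name, and the count files do not say how shared reads were treated. The longest run that hsa-miR-331-3p shared with any other name of the RefSeq table was 10 bases, in hsa-miR-4292. This name and hsa-miR-330-5p, from a better known hairpin, are printed with their shared run in capitals.
hsa-miR-4292: CCCCUGGGCCggccuugg
hsa-miR-330-5p: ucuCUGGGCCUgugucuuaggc
The run in hsa-miR-4292 covered the whole seed of hsa-miR-331-3p, shifted by a single base, yet hsa-miR-4292 had 0 counts in every library. hsa-miR-330-5p shared 8 bases and had 1, 3 and 1 counts. For hsa-miR-331-5p the longest shared run was 9 bases, in hsa-miR-4746-5p, with 3, 0 and 0 counts, and the abundant hsa-miR-23a-3p, with 5591, 2949 and 3220 counts, shared 8. No other name of the RefSeq table shared 12 or more bases with either arm, and listed names not found in it were not compared. These relatives were picked after their counts had been seen.

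The MIR331 hairpin lies on chromosome 12 at 95308420 to 95308513 of GRCh38, on the plus strand, and is 94 bases long. The 5p arm occupies 95308445 to 95308466 and the 3p arm 95308480 to 95308500, with 13 bases between them. In GENCODE 29 no other gene overlapped the hairpin, so it is neither exonic nor intronic there. VEZT, which encodes a protein of cell to cell junctions, ends 5629 bases upstream on the same strand, and the pseudogene AC084879.1 begins 2798 bases downstream on the other strand. The count files hold names only. The submitters' processing notes name hg19, and no coordinate was carried over from it.

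**Figure D1:**
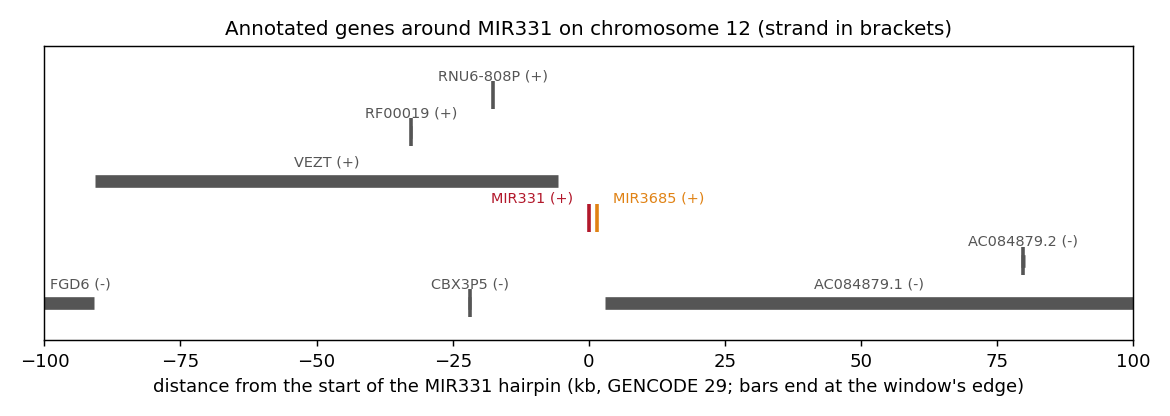
Annotated genes within 100 kb of the MIR331 hairpin on chromosome 12, with distance from its start in kb on the horizontal axis and the strand in brackets; bars are genes and upright ticks are genes too short to draw to length. MIR331 stands between VEZT, which ends 5629 bases before it, and AC084879.1, with MIR3685 the only other miRNA hairpin in the window.

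The 3p arm was the abundant one and differed between the libraries. hsa-miR-331-3p had 267 counts in the parent, against 720 in subclone1 and 401 in subclone2, although the parent library was the deepest, with 7902438 counts against 3570864 and 4568075. Scaled to these totals, the parent had 33.8 CPM (interval 29.9 to 38.1), subclone1 202 CPM (187 to 217) and subclone2 87.8 CPM (79.4 to 96.8). Subclone1 was highest, subclone2 intermediate and the parent lowest, and no interval overlapped another. In bulk libraries, a difference in every cell and a difference in the share of cells with the miRNA cannot be told apart. By rank in its library, hsa-miR-331-3p was number 119, 72 and 91. The miRNAs beside it in that order were hsa-miR-28-5p (268 counts) and hsa-miR-1255a (266) in the parent, hsa-miR-27b-5p (732) and hsa-miR-106b-5p (640) in subclone1, and hsa-miR-30c-2-3p (410) and hsa-miR-629-5p (389) in subclone2. Read counts of different miRNAs carry the kit's ligation bias, so this order describes reads, not molecules.

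The 5p arm was rare throughout. hsa-miR-331-5p had 7 counts in the parent, 6 in subclone1 and only 1 in subclone2. This corresponds to 0.886 CPM (0.356 to 1.83), 1.68 CPM (0.617 to 3.66) and 0.219 CPM (0.00554 to 1.22). All these intervals overlapped, and the interval of each ratio between libraries held 1, so no difference in the 5p arm was detectable at this depth. A count of 0 would have allowed up to 0.380, 0.840 and 0.657 CPM, and the single count of subclone2 lies below its limit.

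**Figure D2:**
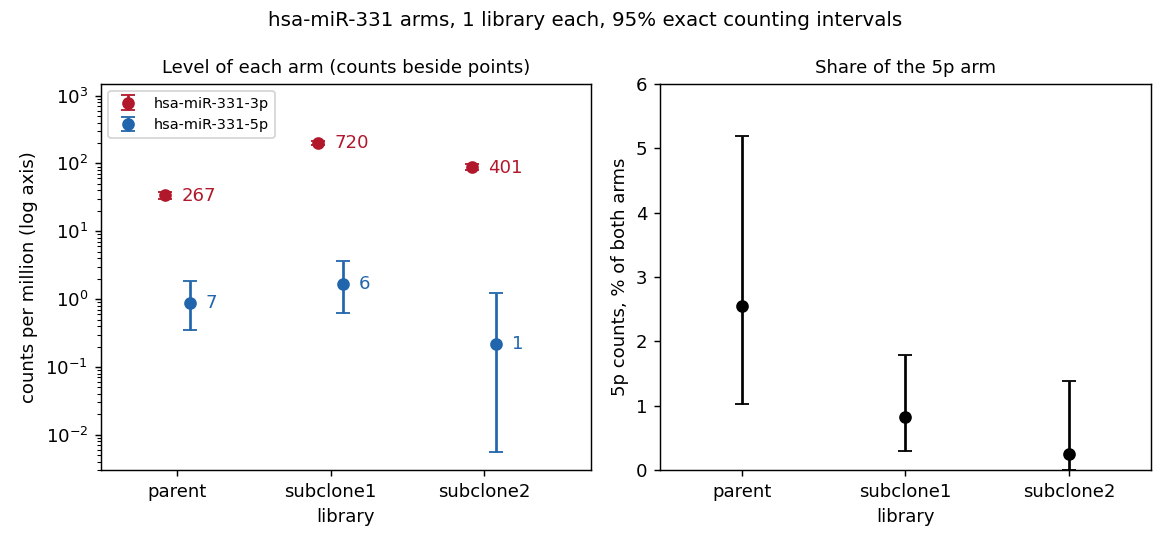
Left, level of each hsa-miR-331 arm in CPM on a log axis in the 3 libraries, with the count beside each point; right, the 5p arm as a percentage of the counts of both arms, on a linear axis. Points are single libraries and bars are exact 95% counting intervals; the 3p arm is highest in subclone1 at 202 CPM, while the 5p arm stays at or below 1.68 CPM.

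Ratios were then taken between the libraries, among miRNAs that averaged 10 CPM or more in the libraries compared, and a miRNA was called when it differed at least 2-fold with an interval that excluded 1. In subclone1 against the parent, hsa-miR-331-3p was called higher, at 5.96-fold the scaled level of the parent (5.18 to 6.89, log2 2.58). Of the 192 miRNAs kept in this comparison 25 were called, which is 13.0%. Only hsa-miR-1307-5p had a larger increase there. In subclone2 against the parent it was called higher at 2.60-fold (2.22 to 3.04, log2 1.38), against a background of 10.7% called (20 of 187), and it stood at place 7 from the top. Between the subclones it was called lower in subclone2, at 0.436 of the level in subclone1 (0.384 to 0.493, log2 -1.20). This was place 6 from the bottom in a comparison with 5.76% called (11 of 191). Since the values chose the arm, nothing is read from these calls against their backgrounds.

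The scaling matters for the last ratio. Over all kept miRNAs, the log2 ratio had a median of 0.02 for subclone1 and -0.15 for subclone2 against the parent, and of -0.17 between the subclones. Relative to these medians the log2 ratio of hsa-miR-331-3p was 2.56, 1.53 and -1.03. With TMM factors, which align the bulk of the miRNAs, the ratio between the subclones was -0.97, short of 2-fold, and with median-of-ratios factors it was -0.99. Its direction and both increases against the parent were kept under every scaling tried.

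For hsa-miR-331-5p the same ratios were 1.92-fold in subclone1 (0.527 to 6.59) and 0.346-fold in subclone2 (0.00548 to 1.92) against the parent, computed with 0.5 counts added. On so few counts the added count sets much of the value, and with 5 counts added the log2 ratio in subclone2 was -0.21 in place of -1.53. hsa-miR-331-5p was below 10 CPM in every comparison and could not be called. In subclone1 the interval held both no difference and the 5.96-fold of the 3p arm. In subclone2 it held no difference but lay wholly below the interval of the 3p arm. Summed, the arms followed the 3p arm, with 34.7, 203 and 88.0 CPM.

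The ordering of the libraries was compared with that of other miRNAs. Of 192 miRNAs that averaged 10 CPM or more over all libraries, 16 (8.33%) were highest in subclone1, intermediate in subclone2 and lowest in the parent with every pairwise interval excluding 1. They included hsa-miR-152, hsa-miR-181d, hsa-miR-1269a and hsa-miR-193a-3p. hsa-miR-331-3p was the only miRNA among the 192 for which every step was also at least 2-fold. Under TMM or median-of-ratios scaling no miRNA met this, and 12 or 13 had the order itself, hsa-miR-331-3p among them.

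The miRNAs with the most similar ratios against the parent were found by the straight-line distance between pairs of log2 ratios, over 178 miRNAs with at least 100 counts in their highest library. The nearest was hsa-miR-1307-5p at a distance of 0.82, followed by hsa-miR-10a-5p (0.99), hsa-miR-192-5p (1.02), hsa-miR-675-5p (1.17) and hsa-miR-194-5p (1.25). The median distance was 3.03. hsa-miR-1307-5p, the minor arm of its hairpin, had 5.95, 50.7 and 9.85 CPM. It thus shared the peak in subclone1, but its ratio between subclone2 and the parent was smaller (log2 0.73, 0.11 to 1.35). hsa-miR-192-5p, an abundant miRNA of liver and gut epithelium, and hsa-miR-10a-5p, encoded in a HOX cluster, were instead slightly higher in subclone2 than in subclone1 (log2 0.20 and 0.18). hsa-miR-675-5p, cut from the H19 transcript, had 45, 98 and 149 counts, and its interval between the subclones held no difference. hsa-miR-194-5p had 108, 271 and 263 CPM, the subclones again not differing beyond counting error. For these 2 miRNAs this holds for library totals only. TMM and median-of-ratios factors move all ratios between the subclones up by 0.23 and 0.21. The lower limits of hsa-miR-675-5p (-0.13) and hsa-miR-194-5p (-0.17) then pass the value of no difference. None of these hairpins lies on chromosome 12. Likeness over 3 libraries that share 1 parent describes these libraries only.

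**Figure D3:**
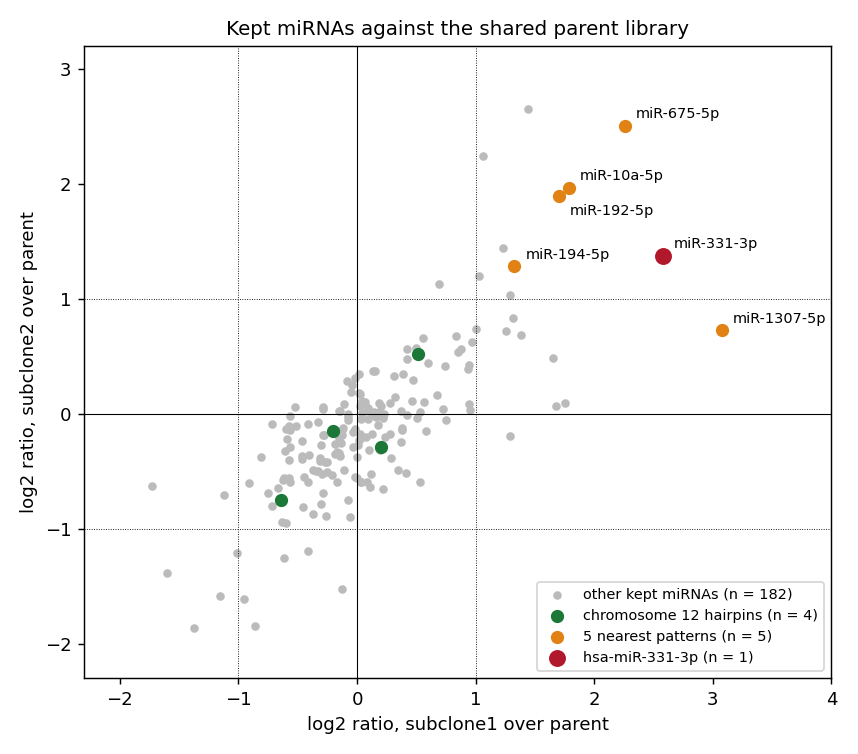
Log2 ratio of subclone1 over the parent (horizontal) and of subclone2 over the parent (vertical) for the 192 kept miRNAs, with dotted lines at 2-fold and both axes sharing the parent library. hsa-miR-331-3p lies at 2.58 and 1.38, apart from the 4 other kept chromosome 12 miRNAs, which stay within 2-fold on both axes and come from distant parts of the chromosome.

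The position on chromosome 12 was examined next, as miRNAs cut from 1 transcript or lying in 1 region can move together. MIR3685, the only other miRNA hairpin within 100 kb, begins 1409 bases past MIR331 on the same strand. Its product hsa-miR-3685 had 1 count in the parent and 0 in both subclones, so it was near the limit of detection and no change in it was detectable. Of 63 listed names made from a single hairpin on this chromosome, 5 were kept. Besides hsa-miR-331-3p, none of the other 4 was called in any comparison. Among all kept miRNAs the called share was 13.0% for subclone1 and 10.7% for subclone2 over the parent. It was 5.76% for subclone2 over subclone1. At such shares, 4 miRNAs without a call are too few to differ from the rest, and nothing is drawn from this count. Against the parent the median log2 ratio of these 4 miRNAs was -0.22 in subclone2 and 0.0012 in subclone1. Over all kept miRNAs the median was -0.15 and 0.02.

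The 4 miRNAs stood as follows. hsa-let-7i-5p, of the let-7 family of differentiation miRNAs, had 38363, 33314 and 34493 CPM. hsa-miR-148b-3p had 150, 173 and 123 CPM. hsa-miR-200c-3p, which represses the ZEB factors of the epithelial to mesenchymal transition, had 26.6, 37.8 and 38.1 CPM. hsa-miR-1293 had 69.0, 44.2 and 40.9 CPM. Scaled to library totals, every difference of these 4 miRNAs against the parent exceeded counting error and was under 2-fold. The log2 ratios ran from -0.64 to 0.51 in subclone1 and from -0.75 to 0.52 in subclone2. hsa-miR-331-3p, at 2.58 and 1.38, lay above both ranges. The smallest differences depend on the scaling. TMM factors move all ratios of subclone2 against the parent up by 0.17. The ratio of hsa-let-7i-5p there (-0.15) then changes sign, and the interval of hsa-miR-148b-3p (-0.44 to -0.14) then holds no difference.

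The share of the arms needs no scaling, because both are counted in the same library. The 5p arm made up 2.55% of the miR-331 counts in the parent (7 of 274, 1.03 to 5.19), 0.826% in subclone1 (6 of 726, 0.304 to 1.79) and 0.249% in subclone2 (1 of 402, 0.00630 to 1.38). There were thus 38.1, 120 and 401 counts of the 3p arm for each count of the 5p arm. At the arm ratio of the parent, 18.9 counts of the 5p arm would have accompanied the 720 counts of the 3p arm in subclone1, where 6 were seen, and 10.5 would have accompanied the 401 in subclone2, where 1 was seen.

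The shift between libraries was measured as the ratio of the 5p to 3p count ratios. In subclone1 against the parent it was 0.318 (0.0875 to 1.12), an interval that holds 1, the value of no shift. In subclone2 against the parent it was 0.0954 (0.00211 to 0.749), an interval that lies below 1 and rests on 1 count of the 5p arm. Between the subclones it was 0.300 (0.00649 to 2.48). The arm ratio was among the values that chose the pair, so these intervals describe counting error and nothing is drawn from them. A spread between library preparations could not be measured.

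To place this shift, all hairpins with both arms listed were treated alike. Of 508 such hairpins, 99 had at least 10 counts of the minor arm over the libraries. miR-331 entered on 14. Shifts were ranked by size, regardless of direction and with hairpins that had 0 counts of 1 arm in 1 of the libraries compared placed first. The shift of miR-331 was number 9 of 99 for subclone1 against the parent, number 4 for subclone2 and number 14 for the subclones against each other. In this last ranking hsa-miR-671, with 0 counts of the 5p arm in both subclones, had no value and was not placed. The intervals of 27, 28 and 25 hairpins did not hold the value of no shift in these comparisons. These ranks depend on the minimum: with at least 5 counts of the minor arm the shift of miR-331 was number 22, 10 and 24. At the minimum of 10 counts, its shift was the largest finite one towards the 3p arm in both subclones against the parent (log2 -1.65 and -3.39). The direction was common: of 96 hairpins with a finite shift in both subclones, 35 moved towards 3p in both. hsa-miR-532 was among them, on more counts and with both intervals excluding no shift. Its shift was -1.24 (-1.76 to -0.72) in subclone1 and -1.73 (-2.22 to -1.25) in subclone2. hsa-miR-671 and hsa-miR-675 moved the same way but had 0 counts of 1 arm in at least 1 library. The next shifts towards 3p in subclone1 were those of hsa-miR-185 (log2 -1.55) and hsa-let-7e (-1.51). Both rested on few counts of the minor arm in the parent and subclone1, 10 and 16 for hsa-miR-185 and 8 and 11 for hsa-let-7e. miR-331 had still fewer, 7 and 6. The intervals of hsa-miR-185 (-2.85 to -0.32) and hsa-let-7e (-3.03 to -0.06) excluded no shift, whereas that of miR-331 (-3.51 to 0.16) held it. Among finite shifts towards the 5p arm, hsa-miR-1307 (3.01), hsa-miR-2355 (2.38) and hsa-miR-191 (2.09) moved most, the last on 13 and 1 counts of the 3p arm. hsa-miR-3173, with 11 and 9 counts of the 5p and 3p arm in the parent against 2 and 0 in subclone1, moved the same way without a finite value.

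**Figure D4:**
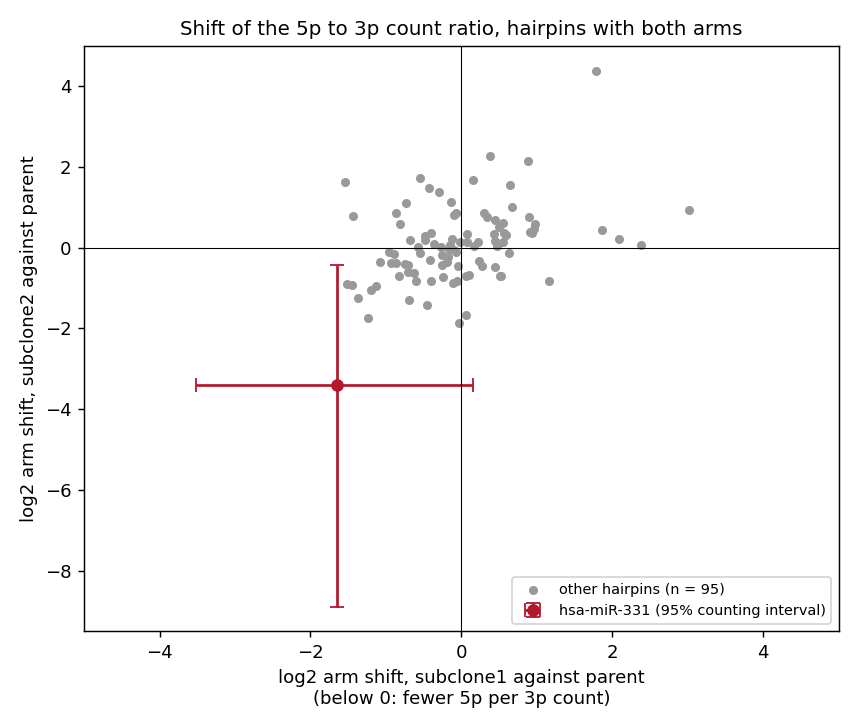
Log2 shift of the 5p to 3p count ratio against the parent in subclone1 (horizontal) and subclone2 (vertical) for the 96 hairpins with a finite value in both (3 of 99 are not drawn), values below 0 marking fewer 5p counts per 3p count. miR-331 lies at -1.65 and -3.39 with its 95% counting intervals, of which the one for subclone1 crosses 0 and the one for subclone2 does not.

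Over all libraries the 3p arm held 99.0% of the miR-331 counts, whereas the major arm of the 99 hairpins held a median of 88.0%. By this share miR-331 was number 26. The 3p arm was the major one in 40 of the 99 hairpins and the 5p arm in 59. Strand choice is known to favour the strand whose 5′ end is less tightly paired, and Argonaute to favour U or A as first base. In the printed sequences the major arm of miR-331 starts with G and has G or C at all 4 of its first bases, against 2 of 4 in the minor arm. Of 83 hairpins with both arms in the RefSeq table, the major arm had fewer G or C than the minor arm in these bases in 47.0%, the same number in 20.5% and more in 32.5%. It began with U in 55.4%, with A in 27.7%, with C in 13.3% and with G in 3.61% (3 of 83). G or C at all 4 first bases was seen in 2 of the 83 major arms. miR-331 was among the hairpins counted in each of these last groups, with a G start, with more G or C in the major arm and with G or C throughout its first bases. The number of G or C bases does not show how tightly either end is paired in the duplex, and the pairing of the ends was not examined. Ligation bias between arms was not measured, and these are descriptions of sequence.

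As to the cells, the hepatocyte miRNA hsa-miR-122-5p was low in every library, at 3.94 to 6.71 CPM, while hsa-miR-192-5p reached 18528 to 69068 CPM. The blood cell miRNA hsa-miR-142-3p had 0 counts, and hsa-miR-223-3p had 2 to 5. Of the muscle miRNAs, hsa-miR-133a had 1 count in each library and hsa-miR-1 had 6.71, 21.6 and 7.01 CPM. hsa-miR-1 was highest in subclone1, like hsa-miR-331-3p, and its part in these results was not tested.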

How the data were processed

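Trizol RNA of cultured cells was used by the authors for TruSeq Small RNA libraries, 1 per strain. The authors deposited raw read counts per mature miRNA name, unscaled. Per the labels, CASAVA 1.4 and hg19 were named in the submitters' processing notes; the aligner, miRBase release and handling of shared reads are not given in the sources used here. The kit's ligation bias affects comparisons between miRNAs and between arms.

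Here, counts were scaled to the file total. Log2 ratios used 0.5 added counts. Intervals were Clopper-Pearson (levels, shares), conditional binomial (ratios) and conditional odds ratio (arm shift), from scipy 1.17.1 in Python 3.11.15. TMM factors came from edgeR 4.0.16, duplexes from ViennaRNA 2.7.2, positions from RefSeq and GENCODE 29. Hairpins were found for 1885 of the 1921 names. Reads without molecular identifiers limit intervals and floors (3 counts) to counting error. No test was made, as each group had 1 library. The ratios and calls were checked on simulated data that held counting error alone, with no spread between preparations. The arm shift was not checked in this way.

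Named miRNAs were the arms, names with shared seeds or runs, neighbours within 100 kb, called chromosome 12 names, the 5 nearest patterns, the 3 largest finite arm shifts each way in subclone1 and rank neighbours. The 4 other kept chromosome 12 miRNAs, hsa-miR-4292, hsa-miR-330-5p, hsa-miR-4746-5p and hsa-miR-23a-3p, the 4 examples of the shared order, and hsa-miR-532, hsa-miR-671, hsa-miR-675 and hsa-miR-3173 were added after their values were seen. Members and lists were chosen with earlier results of these data known. Alternatives were TMM, median-of-ratios, a total that omits the 10 leading miRNAs of each library, other minimum levels and other added counts.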

Additional observations from a re-analysis of the deposited data

How the results depend on the processing

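No paired analysis was possible because the groups have no second library, and no library could be left out either. Of 63 values under alternatives, 50 were classed as unchanged and 0 called values reversed. Unchanged meant a kept call or count or, for values that were not called, a value within their counting interval. For the number of miRNAs called, this class allowed some change. Under the other scalings or 5 added counts this number was 23 or 24 in subclone1 against the parent (25 in the main analysis). It was 20 or 21 in subclone2 against the parent (20), and 8 or 10 between the subclones (11). Among the 50, with 5 counts added the log2 ratio of hsa-miR-331-5p was 1.02 (0.94 with 0.5 added) in subclone1 and -0.21 (-1.53) in subclone2, each against the parent, and -1.23 (-2.47) for subclone2 against subclone1. Between the subclones, hsa-miR-331-3p fell short of 2-fold with TMM (-0.97) and median-of-ratios factors (-0.99), as did the summed arms (-0.97 and -0.99); these factors move all ratios of that comparison up by 0.23 and 0.21. With a minimum of 100 CPM, 7, 5 and 2 miRNAs were called in subclone1 against the parent, subclone2 against the parent and subclone2 against subclone1, and with a minimum of 1 CPM 56, 62 and 29, since fewer or more miRNAs were then compared. hsa-miR-331-3p had mean levels between 10 and 100 CPM in subclone2 against the parent, so the higher minimum leaves it out there. With at least 5 counts of the minor arm, an alternative chosen after seeing the data, the arm shift of miR-331 was number 22, 10 and 24 by size. With at least 30 counts miR-331 itself, with 14, drops out, and that rank was not run. The ratios of hsa-miR-331-5p and the arm shift rest on 7, 6 and 1 counts of the 5p arm, which limits both.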
